A study of Mus musculus with 5 samples.

Results

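The 4 Hox gene clusters of the mouse were examined for DNase I hypersensitive sites in MycER fibroblasts. A window was set around each cluster on the mm9 build, and every called peak that overlapped a window by at least 1 bp was a member. The HoxA window ran on chromosome 6 from 52050000 to 52300000 (250 kb). The HoxB window ran on chromosome 11 from 96000000 to 96280000 (280 kb). The HoxC window ran on chromosome 15 from 102700000 to 102900000 and the HoxD window on chromosome 2 from 74450000 to 74650000 (200 kb each). Peaks of the 3 distinct peak lists that overlapped were merged into sites, of which 44 of the 52181 in the genome lay in the windows. There were 20 sites in HoxA, 17 in HoxB, 4 in HoxC and 3 in HoxD.

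Hox genes encode homeodomain transcription factors that give cells their position along the body axis and the limb. Genes sit in each cluster in the order in which they are used, from anterior genes with low numbers to posterior genes with high numbers. Cultured fibroblasts are known to keep the Hox pattern of the body site they came from, with active stretches in accessible chromatin and silent stretches under Polycomb repression. The files hold peak positions and scores and no expression, so which Hox genes these cells transcribe was not measured. The positional identity of the cells could not be checked either.

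The cells were 3T9 fibroblasts, that is, mouse embryonic fibroblasts immortalised by serial passage, prepared from embryos of day 13.5 and of mixed strain background. All groups carried floxed c-myc alleles and were infected in vitro with MycER, a Myc protein fused to a hormone-binding domain that 4-hydroxytamoxifen (4-OHT) switches on. The labelled treatments are ethanol vehicle (0 h) and 400 nM 4-OHT for 4 h, with 2 libraries each. An input of sonicated DNA from ethanol-treated cells is a further sample, not analysed here. The body part of the embryo used for the culture is not given in the labels, nor whether replicates were separate cultures.

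The 4 deposited lists held 3 distinct ones, since all 44956 peaks of 4-OHT replicate 1 and vehicle replicate 2 were identical. The lists are called the vehicle list (vehicle replicate 1, 35149 peaks), the both-label list (44956 peaks) and the 4-OHT list (4-OHT replicate 2, 47621 peaks). Each treatment therefore had 1 list of certain label, and treatment cannot be told apart from replicate letter. Spreads below are over these 3 lists, which are not replicates of a condition. The score of a peak is the caller's own value, and the depth behind it is unknown. The most common score, 3100, is called the ceiling here, and a peak of 3100 or more counts as at the ceiling. It is not a strict limit, since the highest score in each list was 3233. Because scores differ in scale between lists, each was also turned into a percentile within its own list. This is the share of peaks in the same list that score lower, with tied peaks given their middle rank.

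The genes named for these windows number 38, all found in the RefSeq gene table (GRCm38.p6), which was used for their order only. Gene starts on mm9 were not used here, so no site is assigned to a gene. From anterior to posterior, HoxA holds Hoxa2, Hoxa3, Hoxa4, Hoxa5, Hoxa6, Hoxa7, Hoxa9, Hoxa10, Hoxa11 and Hoxa13, with the posterior end at high coordinates. In the other clusters the posterior end is at low coordinates. HoxB runs from Hoxb1 through Hoxb2, Hoxb3, Hoxb4, Hoxb5, Hoxb6, Hoxb7, Hoxb8 and Hoxb9 to Hoxb13, HoxC from Hoxc4 through Hoxc5, Hoxc6, Hoxc8, Hoxc9, Hoxc10, Hoxc11 and Hoxc12 to Hoxc13, and HoxD from Hoxd1 through Hoxd3, Hoxd4, Hoxd8, Hoxd9, Hoxd10, Hoxd11 and Hoxd12 to Hoxd13. Hoxb3 and Hoxb4, and Hoxd3 and Hoxd4, are given in number order because their gene models overlap. The known roles follow the order along the cluster. Hoxa2 and Hoxb1 pattern the hindbrain and the arches of the head, Hoxa3 and Hoxd3 the neck, Hoxa5, Hoxc6 and Hoxc8 the neck and chest, Hoxa11 and Hoxd11 the forearm and Hoxa13 and Hoxd13 the digits. Hoxb13 acts in the prostate and tail end, and Hoxc13 in hair and nails.

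The CpG content of the promoters is a property the windows did not select on. One promoter per cluster is printed as an example. For HoxB and HoxC it is that of paralogue group 4 (Hoxb4 and Hoxc4). For HoxA it is Hoxa5, the neighbour of group 4, as Hoxa4 had no entry in RefSeq's promoter table. For HoxD it is Hoxd10, chosen for its E-box, the motif that Myc binds, although Hoxd4 had an entry (3 CpG, no E-box). Each line is the 250 bases before the annotated start on the gene's own strand, 5′ to 3′, from RefSeq on GRCm38.p6, with every CpG in capitals.
Hoxa5: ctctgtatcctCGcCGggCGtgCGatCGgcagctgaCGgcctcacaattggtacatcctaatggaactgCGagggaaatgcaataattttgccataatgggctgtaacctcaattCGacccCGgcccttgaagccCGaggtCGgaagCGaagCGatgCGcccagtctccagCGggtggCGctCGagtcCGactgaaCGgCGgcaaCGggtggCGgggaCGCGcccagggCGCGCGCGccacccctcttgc
Hoxb4: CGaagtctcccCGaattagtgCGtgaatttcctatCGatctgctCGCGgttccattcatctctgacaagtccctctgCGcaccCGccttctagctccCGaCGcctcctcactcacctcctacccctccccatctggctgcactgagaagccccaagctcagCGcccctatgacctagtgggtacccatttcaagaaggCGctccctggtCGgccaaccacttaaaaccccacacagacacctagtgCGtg
Hoxc4: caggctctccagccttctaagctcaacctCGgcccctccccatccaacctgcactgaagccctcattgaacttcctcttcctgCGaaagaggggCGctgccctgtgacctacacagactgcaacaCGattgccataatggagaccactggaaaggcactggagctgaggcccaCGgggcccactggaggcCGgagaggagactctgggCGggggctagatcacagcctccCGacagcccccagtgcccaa
Hoxd10: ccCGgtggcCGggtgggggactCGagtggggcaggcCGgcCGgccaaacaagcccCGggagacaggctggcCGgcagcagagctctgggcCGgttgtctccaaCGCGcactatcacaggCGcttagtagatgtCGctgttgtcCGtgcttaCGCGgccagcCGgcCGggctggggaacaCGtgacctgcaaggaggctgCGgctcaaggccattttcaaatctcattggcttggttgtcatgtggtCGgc

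The Hoxa5 stretch held 28 CpG, Hoxd10 20, Hoxb4 14 and Hoxc4 8. Entries existed for 22 of the 38 genes (24 promoters), with a median of 12.5 CpG against 6 over all 32851 promoters of the table. At least 10 CpG were present in 6 of 10 HoxA promoters, 2 of 3 in HoxB, 0 of 1 in HoxC and 7 of 10 in HoxD, against 37.8% of all promoters. HoxA and HoxD, which had high and low peak cover as described next, thus differed by 1 promoter of 10 in this count, while HoxC rests on a single entry. The richest were Hoxa13 (35 CpG), Hoxd13 (31) and Hoxa5 (28), and the poorest Hoxd11 at one of its starts (2), Hoxa9 (3) and Hoxd4 (3). The E-box CACGTG, which reads the same on both strands, occurred at Hoxd1, Hoxd10, one start of Hoxd11 and Hoxd13, or 4 of 10 HoxD promoters. It occurred in 0 of the other 14 and in 6.02% of all promoters. In the Hoxd10 line it is the caCGtg that follows ggggaa. A motif match is a description of letters, and none of these starts could be placed against the peaks.

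Accessible chromatin in the Hox clusters was concentrated in HoxA. Peaks covered 19.2% of the HoxA window in the vehicle list, 23.2% in the both-label list and 22.3% in the 4-OHT list, or 21.6% ± 2.11 (SD, n = 3 lists). HoxB had 2.27%, 4.33% and 5.02% in the same order (3.87% ± 1.43). HoxC had 0.938%, 1.59% and 0.908% (1.15% ± 0.388), and HoxD 0.516%, 1.38% and 1.40% (1.10% ± 0.504). HoxA was higher than each other cluster in 3 of 3 lists, by at least 16.9 percentage points. HoxB was above HoxC and HoxD in 3 of 3 lists, while HoxC and HoxD did not differ beyond their spread. With 3 lists a two-sided exact sign-flip permutation test over lists cannot go below p = 0.25, and it gave 0.25 for the 5 pairs other than HoxC against HoxD (0.30 after Benjamini-Hochberg adjustment over 6 pairs). That last pair gave p = 1 in the exact test.

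**Figure D1:**
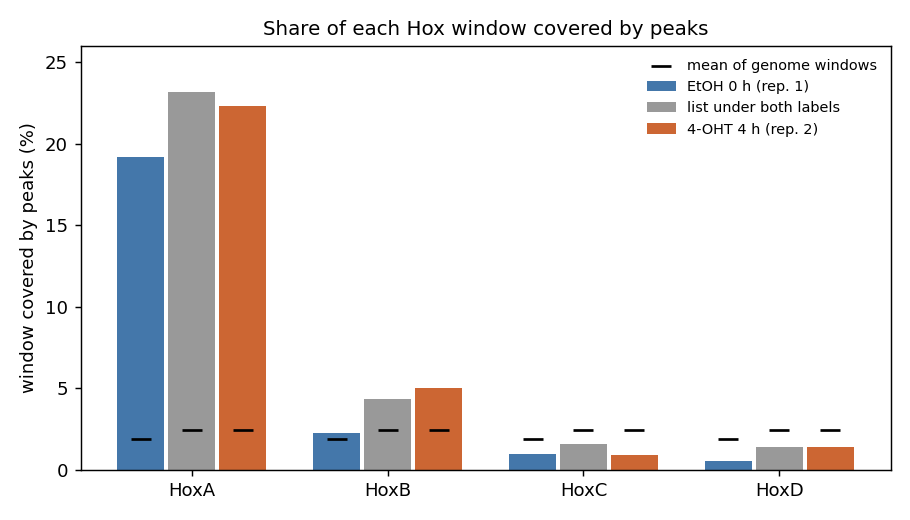
Share of each Hox window covered by peaks (y axis, percent) in the 3 distinct lists (bars), with the mean over windows of the same length along the genome as black dashes. HoxA bars stand between 19.2% and 23.2%, those of HoxB between 2.27% and 5.02%, and those of HoxC and HoxD lie below the dashes.

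Set against the genome, HoxA was among the most covered stretches of its length and the other clusters were not. The genome was divided into adjoining windows of 250 kb up to the last peak of each chromosome. Of 10531 such windows, 18 (0.171%) had at least the HoxA cover in the vehicle list, 36 (0.342%) in the both-label list and 31 of 10532 (0.294%) in the 4-OHT list. The mean cover was 1.86%, 2.45% and 2.44% and the median 0.601%, 0.769% and 0.817%. HoxB exceeded 71.1%, 80.2% and 83.6% of windows of its length in the same list order. HoxC exceeded 56.7%, 60.9% and 52.3%, and HoxD 50.0%, 58.8% and 58.1%. These windows include gene deserts, so a rank near the middle marks sparse cover.

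The number of peaks differed less than their cover, because HoxA peaks were wide. HoxA held 19, 21 and 23 peaks in the vehicle, both-label and 4-OHT lists, HoxB 6, 12 and 14, HoxC 2, 3 and 2, and HoxD 1, 3 and 3. Median widths in HoxA were 2272, 2340 and 2095 bp, against 1222, 1215 and 1136 bp over all peaks of the lists. The widest peak outside HoxA was 1719 bp, in the HoxB window of the both-label list, and HoxC and HoxD did not go beyond 1494 bp. Of the merged sites, 8 of 44 spanned 3000 bp or more, all 8 in HoxA, against 4.88% of merged sites in the genome. Through these widths HoxA made up 83.8%, 76.2% and 74.9% of all bp covered in the 4 windows.

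The HoxA cover formed a single dense block. Sites with less than 10 kb between them were chained, a limit chosen after the positions had been seen, and the longest chain ran on chromosome 6 from 52107381 to 52191363 (84.0 kb), from 57.4 to 141 kb behind the anterior edge of the window. It held 17 of the 20 HoxA sites, with gaps of 28 to 4354 bp and a median gap of 1195 bp. Peaks covered 53.5% of the block in the vehicle list, 65.1% in the both-label list and 62.1% in the 4-OHT list, and the block carried 93.8%, 94.4% and 93.4% of the HoxA cover. In the 57.4 kb between the anterior edge and the block no list had a peak. In the 109 kb from the block to the posterior edge, cover was 2.73%, 2.98% and 3.39%. The borders of the block were drawn from these same peaks, so the change of cover at them describes the chain and is no separate result.

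**Figure D2:**
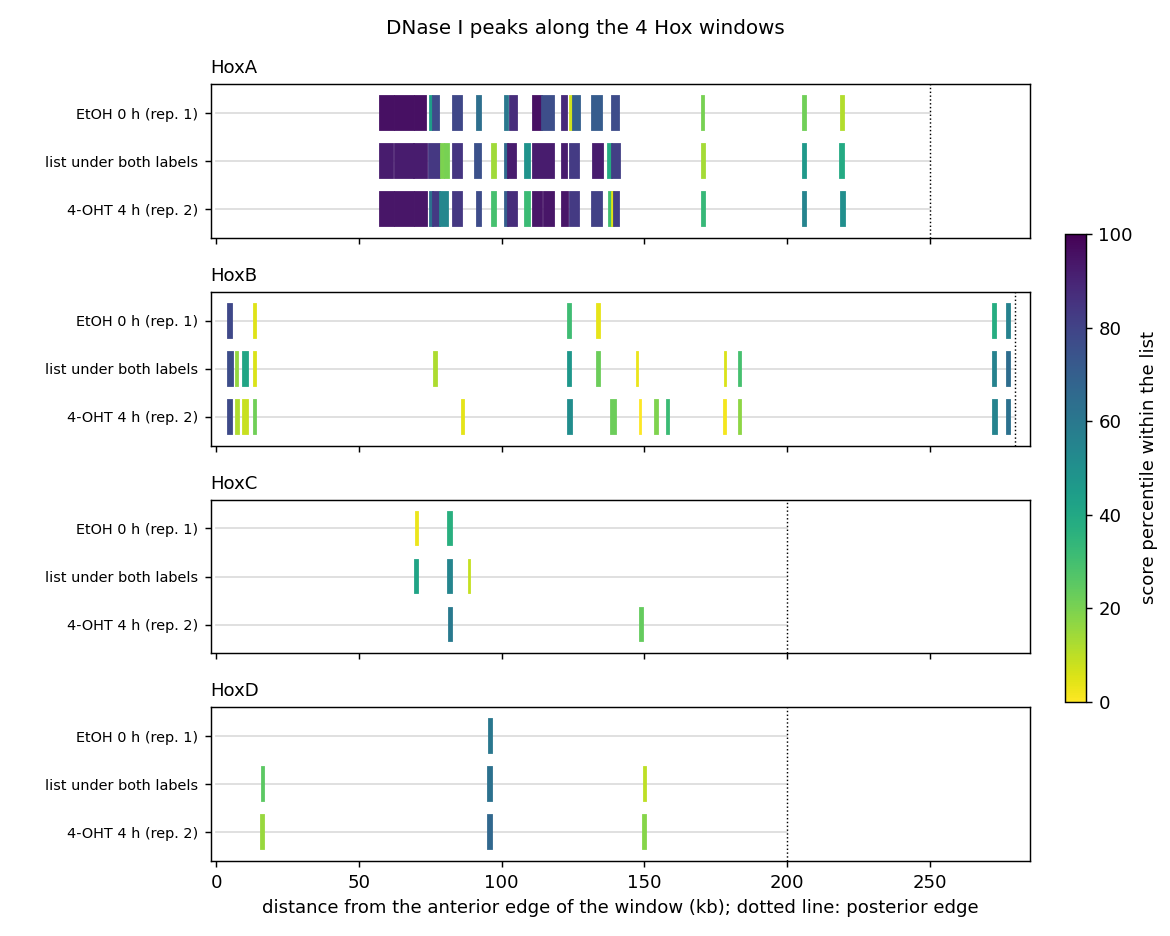
Called peaks (boxes drawn to scale) along each Hox window, with distance from the anterior edge in kb on the x axis, 1 row per list, and colour for the score percentile within the list (0 to 100). The HoxA block from 57.4 to 141 kb is filled with dark, wide peaks in all 3 rows, while the other windows hold few and narrow ones.

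The strongest and widest HoxA sites were 3 at the anterior start of the block and 1 posterior of its middle. The first 3 sites of the block were at 52107381 to 52112369, 52112640 to 52119415 and 52119444 to 52123736 on chromosome 6, each at the score ceiling of 3100 in every list. They were 4989, 6776 and 4293 bp wide and followed each other with almost no gap, so that the step from 60 to 70 kb was covered to 94.3%, 92.1% and 94.6%. The widest Hox site of all was 52160832 to 52168461 (7630 bp), also at the ceiling in every list. The both-label list called it as 1 peak of 7571 bp, while the vehicle and 4-OHT lists split it into 2 peaks of 7226 and 6649 bp together. These 4 were the Hox sites at the ceiling in all lists, 4 of 44. Over the genome 5.23% of merged sites scored 3100 or more in all lists.

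Next in strength was the site at 52171063 to 52173157, with scores of 2389 in the vehicle list and 3100 in each of the others. It was followed along the block by 52173895 to 52177515, where the scores were 870, 2593 and 2003 in the vehicle, both-label and 4-OHT lists. The block ended with 52181705 to 52185553 (919, 3100 and 1718) and 52188788 to 52191363 (1268, 2417 and 1786). In every list these 3 sites ranked at percentiles of 70.1 and above. Between the last of them lay a weaker site, 52187355 to 52188539, with no vehicle peak and percentiles of 38.3 in the both-label list and 30.1 in the 4-OHT list. Between the strong stretches cover was lower, with 12.4%, 36.8% and 26.2% in the step from 90 to 100 kb.

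Posterior of the block HoxA had 3 isolated sites, each found in all lists. The site at 52220131 to 52221288 scored 129, 109 and 180 in the vehicle, both-label and 4-OHT lists. The site at 52255522 to 52256637 scored 133, 312 and 392, and the site at 52268657 to 52270258 scored 104, 238 and 330. They were 1116 to 1602 bp wide and weak in the vehicle list, where their percentiles were 20.4, 21.6 and 11.7. The widest empty stretch between HoxA sites lay among them, 34.2 kb from 52221289 to 52255521.

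HoxB had its strongest sites near the ends of the window and lower-scoring ones between. At the anterior end, 96274263 to 96275927 on chromosome 11 scored 1351 in the vehicle list, 1762 in the both-label list and 1379 in the 4-OHT list. At the posterior end, 96001792 to 96003012 scored 423, 780 and 558, and 96006527 to 96007738 scored 213, 469 and 399. All 3 lay within 8 kb of a window edge, and with the window narrowed by 20 kb on each side mean HoxB cover was 1.94% in place of 3.87%. In the interior, the site of all lists was 96155501 to 96156645 (173, 322 and 339), 123 kb behind the anterior edge. The longest empty stretch of any Hox window lay in HoxB, 88.4 kb from 96007739 to 96096118, toward the posterior end, and a second of 62.3 kb ran from 96203630 to 96265936.

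The other HoxB sites scored at most 256 in any list, and the lowest was at the file minimum of 80. The fifth site found in every list, 96265937 to 96266839, scored 88.4, 90.6 and 131. Of 17 HoxB sites 5 were in all lists, 5 in a pair of lists and 7 in a single one. The single-list sites scored between 80 and 173. The widest site, 96268918 to 96270636 (1719 bp), scored 256 in the both-label list and 94.9 in the 4-OHT list, with no vehicle peak.

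HoxC and HoxD each had 1 site that every list contained. In HoxC it was 102817251 to 102818744 on chromosome 15, with scores of 207 in the vehicle list, 445 in the both-label list and 486 in the 4-OHT list. In HoxD it was 74553439 to 74554806 on chromosome 2, with scores of 534, 694 and 703. Both lay anterior of the midpoint of their windows, 81.3 and 95.2 kb behind the anterior edge, and both were of ordinary width (1494 and 1368 bp). The HoxD site ranked at percentiles of 60.4, 62.8 and 66.7 and the HoxC site at 37.0, 54.4 and 59.6, so neither belonged to the strong sites of its list.

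The remaining sites of these clusters scored at most 260 and were each missing from at least 1 list. In HoxC, 102829183 to 102830359 scored 85.1 in the vehicle list and 260 in the both-label list and had no 4-OHT peak. HoxC also had a site of the both-label list alone (97.6) and one of the 4-OHT list alone (138). In HoxD the sites at 74633391 to 74634231 and 74499528 to 74500341 were in the both-label list (151 and 101) and the 4-OHT list (112 and 120). Empty stretches of 69.6 kb from the anterior edge of HoxC and 78.6 kb anterior of the midpoint of HoxD, from 74554807 to 74633390, were the longest there.

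Along the axis from anterior to posterior, cover leaned to the anterior side of the window midpoint in each cluster. In HoxA the anterior side was covered to 29.2%, 36.0% and 34.7% and the posterior side to 9.08%, 10.4% and 9.97%. In HoxB the sides had 3.04%, 5.50% and 5.60% against 1.51%, 3.15% and 4.44%. The HoxC values were 1.88%, 3.19% and 0.986% against 0%, 0% and 0.831%, and the HoxD values 1.03%, 2.08% and 1.99% against 0%, 0.673% and 0.814%. The anterior side was higher in 3 of 3 lists in every cluster, but in HoxC and HoxD this rests on 1 to 3 peaks per list. In HoxB it depended on low-scoring peaks in the vehicle list. Vehicle peaks there with a score of at least 200 were of 1500 bp on the anterior side and of 1120 and 989 bp on the posterior side. At that minimum the both-label and 4-OHT lists still had more HoxB cover on the anterior side. The midpoints are those of the windows, whose edges were not set by gene starts, and do not divide the genes by number.

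**Figure D3:**
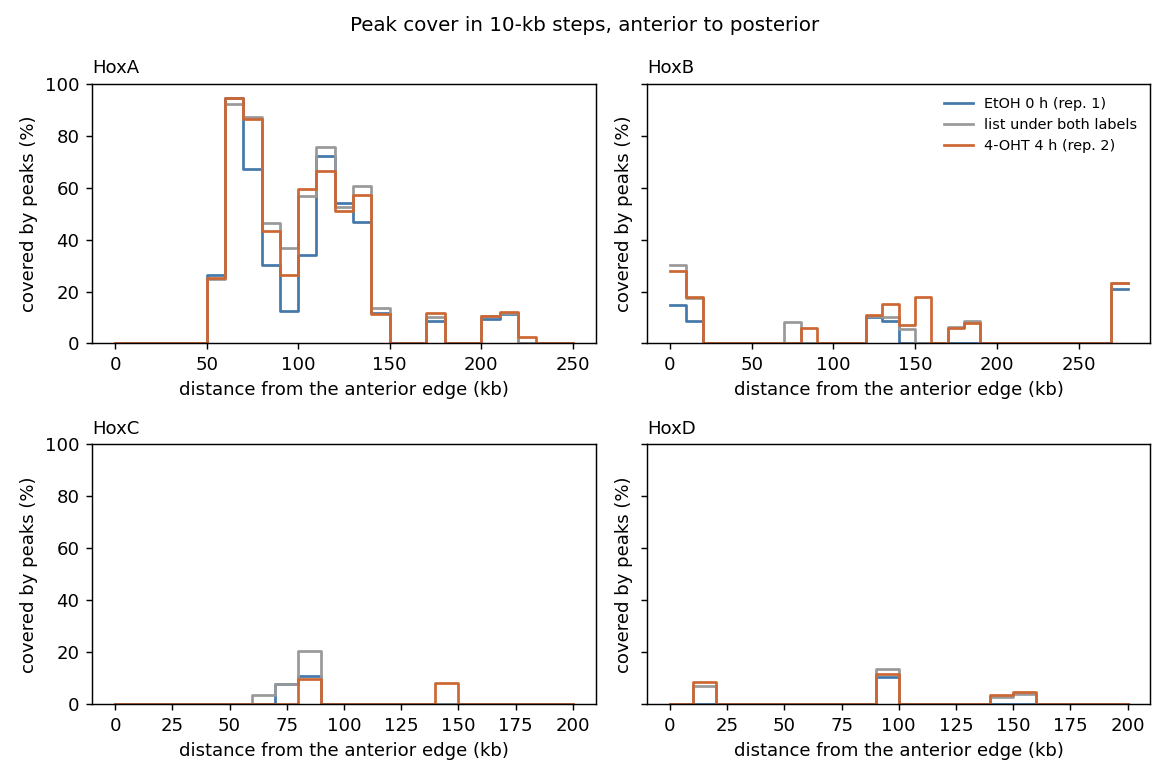
Percent of each 10-kb step covered by peaks (y axis) against distance from the anterior edge of the window in kb (x axis), 1 line per list. HoxA rises to between 92.1% and 94.6% in the step from 60 to 70 kb and falls to at most 13.6% past 140 kb, while no step of the other windows goes above 30.1%.

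Most HoxA sites were in every list and most sites of the other clusters were not. All 3 lists had a peak at 16 of 20 HoxA sites (80%, Wilson 95% interval 58.4% to 91.9%), 5 of 17 in HoxB (29.4%, 13.3% to 53.1%), 1 of 4 in HoxC and 1 of 3 in HoxD. Over the clusters this was 23 of 44 (52.3%, 37.9% to 66.2%), and over the genome 61.1% of merged sites. The intervals cover counting error only, and neighbouring sites are not independent. A site without a peak was not detected in that list.

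Against the vehicle list the other lists had more sites, as they did genome-wide. The 4-OHT list had 16 sites without a vehicle peak among its 39 Hox sites (41.0%, 27.1% to 56.6%), against 29.6% over the genome. By cluster these were 4 of 20 in HoxA, 9 of 14 in HoxB, 1 of 2 in HoxC and 2 of 3 in HoxD. The both-label list, which also carries the vehicle label, had 13 of 38 (34.2%, 21.2% to 50.1%), against 26.6% over the genome. The intervals of both shares include the genome value. The vehicle list had 2 of 25 sites without a 4-OHT peak, 96145433 to 96146519 in HoxB (score 86.6) and the HoxC site at 102829183, against 3.87% over the genome. It had 0 of 25 without a both-label peak, where a count of 0 allows up to 12.0%, against 4.39% over the genome.

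The 16 sites that the vehicle list lacked were mostly of low score. Their scores in the 4-OHT list ran from 80 to 374 with a median of 122, close to the median of 119 at all such sites of the genome, and against 1379 at the Hox sites in all lists. The highest reached a percentile of 53.8. At 4-OHT scores of 500 and above, 0 of 16 Hox sites lacked a vehicle peak, and 0.241% did over the genome. At scores of 100 to 200 this was 11 of 13, against 64.5% over the genome, and below 100 it was 4 of 4 against 86.9%. With each list limited to its 35149 highest-scoring peaks (equal list length), 5 such sites were left in place of 16. The strongest was 52128518 to 52131373 in the HoxA block, with 374 in the 4-OHT list and 133 in the both-label list. A pair of further sites of the block scored 200 or more in some list without a vehicle peak, 52158087 to 52159992 (342 in the both-label list and 174 in the 4-OHT list) and 52187355 to 52188539 (231 and 165).

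**Figure D4:**
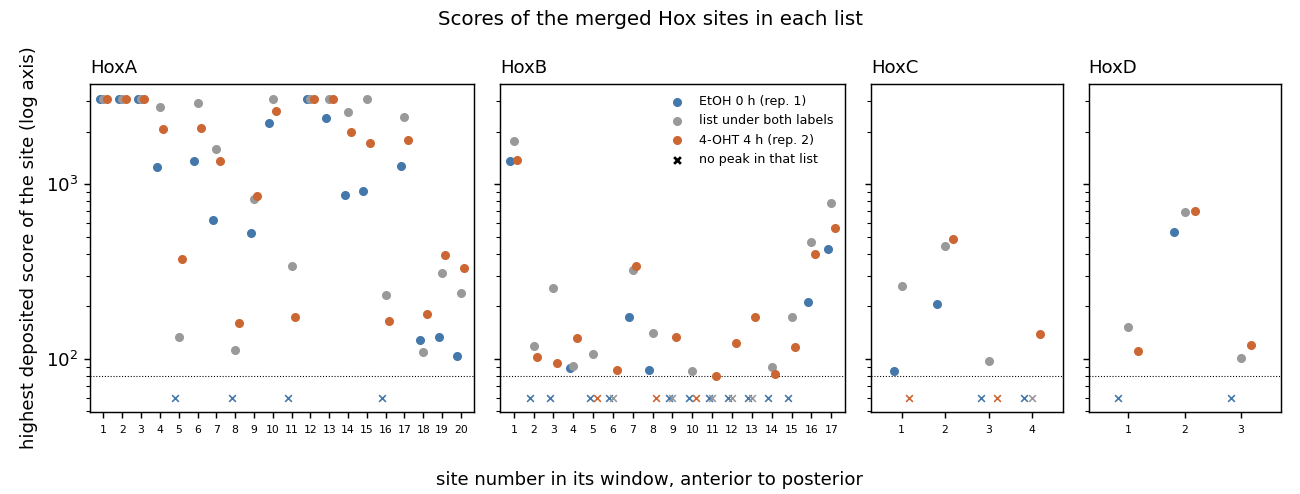
Highest deposited score (log axis) of each merged site in the vehicle list (blue), the both-label list (grey) and the 4-OHT list (orange), with sites numbered from anterior to posterior in each window. Crosses under the dotted line at the lowest score of 80 mark lists without a peak, at sites that score at most 374 in the lists that hold them, while HoxA sites 1, 2, 3 and 12 sit at 3100 in every list.

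At the 23 Hox sites in all lists, scores were higher in the 4-OHT than in the vehicle list at 19 and equal at the 4 ceiling sites, and 83.6% of shared sites in the genome scored higher there. In percentiles the median difference, 4-OHT minus vehicle, was 6.96 points, against 9.04 over all shared sites of the genome. It reached 10 points or more at 10 of 23 sites, against 46.4% over the genome, and was as large the other way at 0 of 23, against 1.66%. The share of Hox sites that ranked higher was thus near that of all sites. At equal list length the median difference at Hox sites was −0.48 points, and −0.35 over the genome, so its direction depended on the longer lists holding more weak peaks. At that length 2 of 21 Hox sites were higher in the 4-OHT list by 10 points or more, against 14.1% of shared sites over the genome. As large a difference the other way occurred at 0 of 21, against 11.9%.

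Both sites that were higher by 10 points or more at equal list length were isolated HoxA sites posterior of the block. The remaining isolated site, 52220131 to 52221288, was not in the equal-length set. Its both-label score of 109 lay under the lowest score of 138 kept in that list. With all peaks, 52255522 to 52256637 ranked at 21.6 in the vehicle list, 46.3 in the both-label list and 54.9 in the 4-OHT list. The neighbour at 52268657 to 52270258 ranked at 11.7, 39.2 and 50.6. These were the largest differences of any Hox site, 33.3 and 39.0 points, and they were 17.3 and 21.4 points at equal list length, where 14.1% of shared sites in the genome rose by at least 10. The both-label list lay between the others at both sites. The other 8 were 52140508 to 52142867, 52151041 to 52152242, 52173895 to 52177515 and 52220131 to 52221288 in HoxA, 96265937, 96155501 and 96006527 (starts) in HoxB and the shared HoxC site, with differences of 10.1 to 22.6 points. With 1 list of certain label per treatment no test of these differences was possible.

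Cover at shared sites was widest in the both-label list, as it was over the genome. Over the 23 sites the vehicle list had a median width of 1500 bp, the both-label list 1937 bp and the 4-OHT list 1466 bp, against 1279, 1450 and 1389 bp over all shared sites. Cover at a site was wider in the 4-OHT than in the vehicle list at 14 of 23 sites, against 68.8% over the genome. It was wider in the both-label than in the vehicle list at 19 of 23, against 75.3%. At the first HoxA sites the widths were 4897, 4368 and 4879 bp, then 6604, 6776 and 6630 bp, then 4189, 4293 and 4160 bp. No list was the widest at all 3 of these sites, so the anterior start of the HoxA block showed no common direction with the label.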

How the data were processed

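DNase-seq peak lists of 4 libraries were used, with an unknown depth. Per the submitters' processing notes, BWA 0.6.2, SAMtools, MACS 1.4.1 and mm9 were used, with settings not given in the sources used here. The authors deposited a score for each peak, which from the name of the caller would be a scaled log10 of a p-value, although no file header states it. Per-library calling and the use of the input are likewise unstated there.

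Peaks of the 3 distinct lists overlapping by at least 1 bp were merged into sites, and a site's score in a list was its highest peak score. Percentiles used midranks. Starts are printed counted from 1. The merge and the cover were tested on simulated lists. Sites to name were the 5 strongest shared sites and the widest site and widest empty stretch per cluster, sites lacking a list with a score of at least 200, and shared sites differing by 10 percentile points or more. The members, windows, lists and rules were chosen with earlier results of these data known. Hox cofactors were to be placed only on an mm9 annotation and were not analysed here. Alternatives were score minimums of 100 and 200, equal list length, sites joined only at 50% overlap (of the shorter peak) or already within 500 bp, window edges moved by 20 kb, peak centres, and leaving out each list. Python 3.11.15, numpy 2.4.6, pandas 2.3.3, scipy 1.17.1 and matplotlib 3.10.9 were used.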

Additional observations from a re-analysis of the deposited data

How the results depend on the processing

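HoxA was the most covered cluster under each of the 11 alternatives, at 4.84 to 13.2 times the next cluster. The alternatives that change only how sites are joined cannot alter cover or posterior share, so their values there repeat the main ones by construction. Of 142 recomputed values, 123 moved by less than the spread over lists (for counts and the percentile difference, at most 1.5 times). These 123 include the repeated values. With a score of at least 200, merged sites fell from 44 to 26, sites of the 4-OHT list without a vehicle peak from 16 to 4, and vehicle sites without a 4-OHT peak from 2 to 0 (also 0 at a score of at least 100). Mean cover was then 1.82% in HoxB and 0.592% in HoxD, and the posterior side of the window midpoint held 20.3% of the covered bp in HoxA (22.8% with all peaks), 46.9% in HoxB (37.9%) and 0% in HoxD (17.8%). Equal list length left 5 sites of the 4-OHT list without a vehicle peak and 0% on the posterior side of HoxD, and it reversed the median percentile difference from 6.96 to −0.48, because the weakest peaks of the longer lists are left out. Merging within 500 bp left 2 of 4 ceiling sites, as neighbours joined. Windows narrowed by 20 kb gave 25.7% cover in HoxA and 1.94% in HoxB, with 32.0% of the HoxB cover on the posterior side. Widened windows gave 18.8% in HoxA, with 23.7% of the HoxA and 45.2% of the HoxB cover on the posterior side. Leaving out a list gave HoxA cover of 20.7% to 22.7% and HoxB cover of 3.30% to 4.67%. The posterior share in HoxC (15.2%) was 0% at a score of at least 200, at equal list length and without the 4-OHT list. It was 22.9% without either other list. These HoxC values count as unmoved, because the spread over lists was larger than the change. In HoxD the posterior share was 26.7% without the vehicle list. No paired analysis was possible because the results come from no test of treatment and 1 list stands under both labels. Unknown depth means that an absent peak was not detected and cannot be called closed chromatin.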

Other observations

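The stretches beside the Hox windows, each as long as its window, were chosen after the data had been seen and are given as values. Beside HoxA, cover was 2.41%, 2.65% and 2.45% on the anterior side and 0%, 1.20% and 1.39% on the posterior side in the vehicle, both-label and 4-OHT lists, against 19.2% to 23.2% within. Beside HoxC the order was the other way, with 6.74%, 8.94% and 10.4% on the anterior side and 4.61%, 5.89% and 6.22% on the posterior side, against 0.908% to 1.59% within. HoxB had 6.88%, 8.83% and 8.69% on its posterior side and 0.598%, 1.03% and 0.643% on its anterior side. HoxD had a single peak per list on each side, at 74416035 to 74417695 with scores of 1087, 2878 and 2058 and at 74663395 to 74664779 with scores of 621, 1648 and 931. Both scored higher in every list than the strongest site inside the HoxD window (534, 694 and 703).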
